A study of Mus musculus with 2 samples.

Results

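The cytosolic ribosomal protein mRNAs encode the proteins of the large and small subunits of the ribosome in the cytoplasm. Members were chosen by symbol: Rpl or Rps followed by a number, with an optional a, x or y and a further digit, plus Rpsa, Rplp0, Rplp1 and Rplp2, leaving out pseudogene symbols and the Rps6k kinases. This gave 78 of the 23329 gene symbols in the files, 46 of the large subunit and 32 of the small subunit, listed as 91 transcripts. The study set RNA of a synaptosome-enriched fraction against RNA of the total homogenate, with the aim, named in its title, of finding mRNAs enriched at synapses. Both libraries came from whole brain of wild-type C57BL/6 mice, with 1 library of each kind. The synaptosome library was made from the Percoll gradient layer between 3% and 10%, and the homogenate library was labelled total homogenate. Age, sex, the number of animals behind each library and the meaning of the tag CT10 in both titles are not given in the labels. Synaptosomes are pinched-off nerve endings that keep pieces of the attached postsynaptic membrane.

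Each ribosome is built from ribosomal RNA and a set of proteins of which most are needed in a single copy, so their mRNAs are usually made in similar amounts. In mammals these mRNAs begin with a 5′ terminal oligopyrimidine tract, a C followed by a run of C and T known as a TOP tract, through which mTOR and the RNA-binding protein Larp1 control their translation. In neurons, ribosomal protein mRNAs are known from dendrites and axons as well as from cell bodies.

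To show what such a run looks like, 30 bases of transcript-strand sequence are given for 6 members, chosen among the 48 that hold a run of at least 8 bases, 3 with high and 3 with low ratios of synaptosome to homogenate. They come from RefSeq on GRCm38.p6, 5′ to 3′, and capitals mark the longest run of C or T within 50 bases of the annotated gene start.
Rps21: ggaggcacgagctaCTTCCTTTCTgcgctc
Rps15: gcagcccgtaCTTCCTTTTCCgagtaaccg
Rpl13a: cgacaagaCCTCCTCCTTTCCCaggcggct
Rps6: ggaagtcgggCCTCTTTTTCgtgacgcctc
Rpl15: gagaaagCCTTCTTCCTTTCCTCTggcggc
Rps15a: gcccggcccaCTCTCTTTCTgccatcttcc
The windows are chr2:180257399-180257428 (Rps21, + strand), chr10:80292446-80292475 (Rps15, + strand), chr7:45128722-45128751 (Rpl13a, - strand), chr4:86857349-86857378 (Rps6, - strand), chr14:18270968-18270997 (Rpl15, - strand) and chr7:118116143-118116172 (Rps15a, - strand). The choice of members fixed that each window holds a run, and the annotated start need not be the start of the mRNA.

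The homogenate library held 15210838 estimated counts and the synaptosome library 13709528. Each fraction is a single library, without replicates and without a test, so every ratio compares these 2 libraries. Ratios are synaptosome over homogenate after TMM scaling, which sets the typical gene near equal, and each has an exact 95% interval for counting error only. Calls of higher or lower needed a 2-fold difference or more, with an interval that left out a ratio of 1. All 78 members passed the filter of a mean CPM (a gene's counts relative to its library's size) of 1, as did 14153 genes in all. Without TMM, using library totals, every log2 ratio lay 0.49 lower. Marker genes of other cell types differed between the libraries: the summed CPM of 10 astrocyte markers was 7549 in the homogenate against 32383 in the synaptosome fraction, of 10 oligodendrocyte markers 7454 and 23057 (of which Mbp alone had 3217 and 17068), of 10 microglia markers 320 and 607, of 10 endothelial markers 230 and 35.7, of 5 blood markers 258 and 28.4, and of 10 neuronal markers 7606 and 6603. For 6 oligodendrocyte precursor markers it was 243 and 561, for 6 choroid plexus and ependymal markers 524 and 205, and for 6 nuclear RNAs 8868 and 1845. No astrocyte, oligodendrocyte, microglia or neuronal marker was at 0 in either library. The blood marker Hba-a2 was at 0 in the synaptosome library and the nuclear RNA Xist at 0 in the homogenate. By the rule of 2-fold, 9 of 10 astrocyte markers were higher, 2 of 10 oligodendrocyte markers were higher, 5 of 10 microglia markers were higher, 4 of 10 neuronal markers were lower and 9 of 10 endothelial markers were lower. The median log2 ratio was 2.15 for astrocyte markers, 0.31 for oligodendrocyte markers and -0.88 for neuronal markers. The part of these differences in the results was not tested. In such bulk samples, recovery of fewer cell fragments of a type in the gradient layer and less RNA per fragment cannot be told apart.

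Ribosomal protein mRNAs made up more of the synaptosome library than of the homogenate. Their summed counts were 224884 in the homogenate, 1.48% of the library (exact binomial interval 1.47 to 1.48), and 355863 in the synaptosome fraction, 2.60% (2.59 to 2.60). In TPM, a unit that divides by transcript length and so allows genes to be compared, the members held 5.41% and 9.48%. These shares use no TMM scaling. By ratio, 59 of the 78 members were called higher, beside 12.8% of all 14153 genes, and 2 were called lower, beside 9.1% of all genes. The median log2 ratio of the members was 1.25, a 2.37-fold difference, and that of all genes -0.01. Under library totals 18 members were called higher and under TPM 17, while the calls over all genes moved to 636 higher and 3629 lower under library totals and to 568 higher and 3926 lower under TPM. The distance between the 2 medians was 1.26 under each of these scalings. This was fixed in advance, since they shift all genes alike, or nearly so for TPM.

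**Figure D1:**
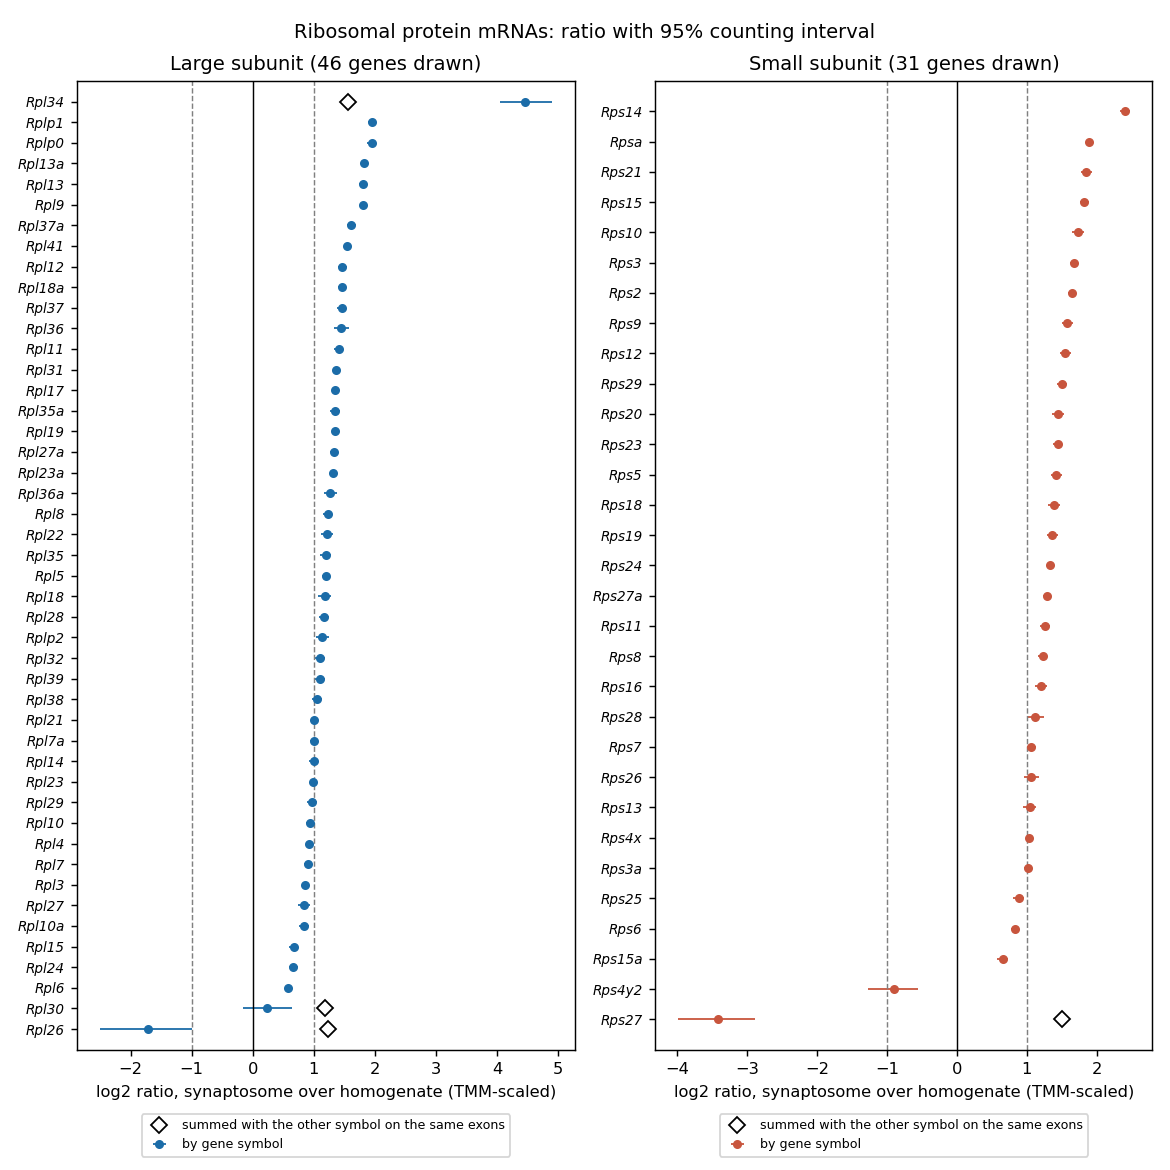
Log2 ratio of 77 of the 78 ribosomal protein genes, synaptosome over homogenate, TMM-scaled, with bars for the 95% counting interval, dashed lines at 2-fold and diamonds for 4 genes summed with another symbol on their exons. Of the genes drawn, Rpl26, Rps27 and Rps4y2 lie below 0 by symbol, and the diamonds lie among the other genes.

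The members called lower, and the most extreme one called higher, shared their exons with another symbol. The files place Gm15772 on the exons of Rpl26 on chromosome 11, Gm12191 on those of Rpl30 on chromosome 15, Rpl34-ps1 on those of Rpl34 on chromosome 3 and Gm9846 on those of Rps27 on chromosome 3, with at least 99.5% of the shorter record shared. For 3 of these symbols GENCODE annotates a processed pseudogene elsewhere, on chromosome 5 for Gm15772, 11 for Gm12191 and 6 for Rpl34-ps1, and it does not list Gm9846. Counts of such paired records cannot be read one symbol at a time.

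Rpl26, which lines the exit tunnel of the large subunit, had 97 counts in the homogenate against 19 in the synaptosome fraction, while Gm15772 had 5346 and 8143. Summed, the locus was 2.34-fold higher (2.26 to 2.42). Rps27, a zinc-binding protein of the small subunit, had 518 and 31 counts, while Gm9846 had 2444 and 5367. The sum was 2.85-fold higher (2.72 to 2.98). The 346-base transcript of Rps27 alone was listed at 500 counts and at 0, against 18 and 31 for its 575-base transcript. Rpl34 had 51 and 719 counts, of which its 403-base transcript held 0 and 657, and Rpl34-ps1 had 1258 and 1744. By symbol Rpl34 was 22.0-fold higher (16.6 to 29.8), and summed 2.94-fold (2.75 to 3.14). Rpl30 had 123 and 93 counts, Gm12191 2358 and 3497, and the sum was 2.26-fold higher (2.15 to 2.38). So the log2 ratios of these genes, -1.71, -3.42, 4.46 and 0.24 by symbol, became 1.23, 1.51, 1.55 and 1.18 when summed. How the estimation divided reads between the paired records was not tested.

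With these 4 loci summed, a step added after the values were seen, 62 of 78 members (79.5%) were called higher and 0 lower. Of all genes by symbol, 12.8% were called higher and 9.1% lower. Rps4y2, the only member then below 0, is listed in the files as a noncoding transcript on chromosome 6 and is described with the paralogs. The other 77 were all above 0, from 0.58 for Rpl6 to 2.40 for Rps14, with a median of 1.27 and quartiles of 1.04 and 1.47. The middle of the family thus spanned less than a 2-fold range of ratios. Of the 78 members by symbol, 74 were above 0 under library totals.

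Level and length were compared as descriptions, since the members are short and abundant. Among the 2258 genes with a mean CPM of 100 or more, 27.3% were called higher and 4.12% lower, and the median log2 ratio was 0.43. Of the 11791 genes within the members' range of transcript lengths, 12.4% were called higher. Among the 915 genes whose longest transcript has at most 1000 bases, 20.0% were called higher and the median was 0.20. These sets include the members themselves, of which 70 had a mean CPM of 100 or more and 61 had at most 1000 bases. Genes that met both limits, leaving out the members and the symbols on their exons, numbered 70, of which 32.9% were called higher, with a median of 0.45. The 53 members that met both limits had a median of 1.29. Across the 77 genes, the ratio had a Spearman rho of -0.24 with transcript length and 0.13 with homogenate TPM, both over genes of the same 2 libraries.

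**Figure D2:**
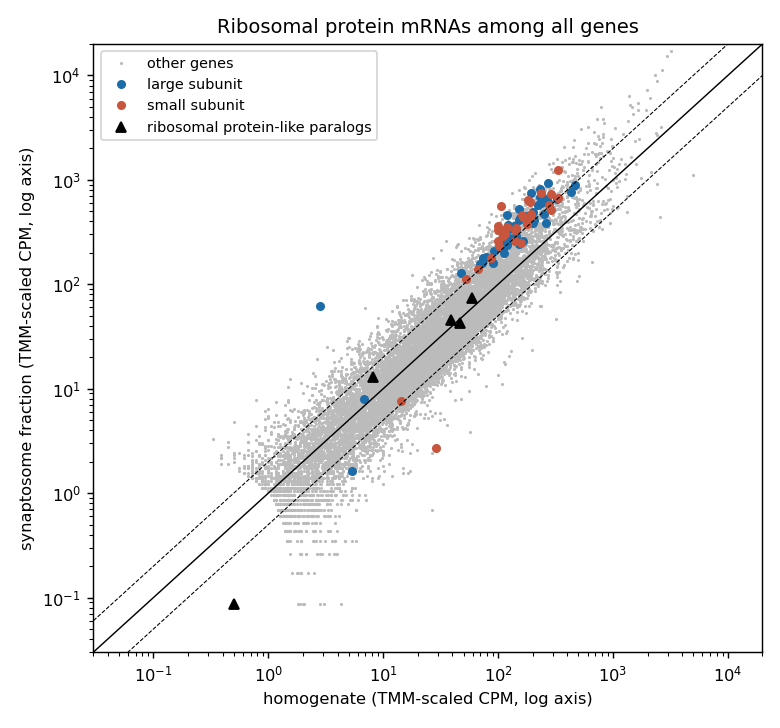
TMM-scaled CPM of each gene with counts in both libraries, on log axes, with lines at equality (solid) and 2-fold (dashed), large subunit in blue, small subunit in red and paralogs as triangles. Most ribosomal protein genes lie on or above the upper dashed line, while Rps4y2 and the 4 genes counted apart from the other symbol on their exons stand off from the rest. Of the 5 paralogs shown, Rpl3l lies at the lower left and the others closer to the line of equality.

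In the large subunit 32 of 46 genes (69.6%) were called higher, beside 12.8% of all genes, with a median log2 ratio of 1.19. With the loci summed it was 34 of 46 (73.9%), with a median of 1.2. In the small subunit 27 of 32 (84.4%) were called higher, beside the same 12.8%, with a median of 1.31. With Rps27 summed and Rps4y2 left out it was 28 of 31 (90.3%), with a median of 1.37. The 2 ranges overlapped over most of their length. The ratio of large to small subunit counts, with loci summed, was 1.59 (1.57 to 1.6) in the homogenate and 1.43 (1.42 to 1.44) in the synaptosome fraction. In TPM, which divides by length, it was 1.45 and 1.33. Small subunit mRNAs therefore took a larger part of the family's total in the synaptosome library, in which no replicate gives the spread of such a ratio.

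Of the genes of the stalk, Rplp0 and Rplp1 were at the upper end of the large subunit, Rpl12 was above its median and Rplp2 below it. The stalk is the flexible arm that recruits the GTPase translation factors, with Rplp0 as its base and Rplp1 and Rplp2 as its arms. Rplp1 (chromosome 9, 61913283 to 61914510) had 3493 counts in the homogenate against 8641 in the synaptosome fraction, a 3.86-fold difference (3.71 to 4.02). Rplp0 (chromosome 5, 115559467 to 115563729) had 2165 and 5338 counts, a 3.85-fold difference (3.66 to 4.05). Their intervals overlapped almost fully. Rplp2 had 1308 and 1847 counts, a 2.20-fold difference (2.05 to 2.37), and Rpl12, which binds the stalk base, 2801 and 4960 counts, a 2.76-fold difference (2.64 to 2.90). All 4 were called higher, but the partners in the arm, Rplp1 and Rplp2, had intervals that did not overlap.

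Next in the large subunit came Rpl13a, which also acts outside the ribosome in silencing of inflammatory mRNAs, with 4136 and 9340 counts (3.53-fold, 3.4 to 3.66). Rpl13 had 2727 and 6126 counts (3.51-fold, 3.35 to 3.67). Rpl9 had 4860 and 10885 counts (3.50-fold, 3.38 to 3.62). These 3 genes, on chromosomes 7, 8 and 5, could not be told apart within counting error. Among 8 genes whose proteins lie at the exit tunnel for the growing chain, 7 were called higher with Rpl26 summed. That is 87.5%, beside 79.5% of the family with loci summed and 12.8% of all genes. Their median log2 ratio of 1.27 was that of the family, and Rpl4 was between the limits at 0.91. Rpl5 and Rpl11, which carry 5S RNA into the ribosome and bind Mdm2 when assembly fails, had log2 ratios of 1.19 and 1.40.

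At the lower end of the large subunit, Rpl6 (chromosome 5, 121204501 to 121209241) had 4672 and 4482 counts, a ratio of 1.5 (1.44 to 1.56). Rpl24, which bridges to the small subunit, had 2942 and 2979 counts, a ratio of 1.58 (1.5 to 1.66). Rpl15 had 2749 and 2795 counts, a ratio of 1.59 (1.51 to 1.67), and Rpl10a had 2031 and 2324, a ratio of 1.79 (1.68 to 1.90). These genes were above the typical gene by intervals that left out a ratio of 1, yet below 2-fold. Their intervals lay wholly below those of Rplp1 and Rplp0, so the spread within the subunit was wider than counting error.

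Rps14, a protein of the platform near the mRNA exit, had the highest ratio of the family once the loci were summed. It had 1922 counts in the homogenate against 6493 in the synaptosome fraction, a 5.27-fold difference (5.01 to 5.55), and no other summed gene had an interval reaching it. Rpsa (chromosome 9, 120127766 to 120132369), a small subunit protein also known as the laminin receptor precursor, had 6002 and 14253 counts, the latter the most of any member in the synaptosome library (3.71-fold, 3.6 to 3.82). Rps21 had 1805 and 4161 counts (3.60-fold, 3.41 to 3.81), and Rps15, at the decoding site, 3286 and 7442 (3.54-fold, 3.39 to 3.69). Rps10 had 1814 and 3853 counts (3.32-fold, 3.14 to 3.51). Rps3, at the mRNA entry channel, had 3442 and 7049 (3.20-fold, 3.07 to 3.33), and Rps2, its neighbour there, a log2 ratio of 1.65. All of these were called higher.

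At the lower end of the small subunit, Rps15a had 2869 and 2888 counts, a ratio of 1.57 (1.49 to 1.66). Its only listed transcript is 5134 bases long, the longest of the family, which lowers its TPM. Rps6, the main substrate of the S6 kinases, had 5237 and 5961 counts, a ratio of 1.78 (1.71 to 1.84). Rps25, needed for initiation at some viral internal ribosome entry sites, had 2544 and 3000 counts (1.84, 1.75 to 1.94). Rps3a had 6041 and 7816 counts and was called higher at 2.02-fold (1.95 to 2.09), just past the limit. Like Rps3a, several members lay close to 2-fold, so the count of calls moves with small shifts in scaling.

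Rps27a and Fau encode a ribosomal protein fused to ubiquitin and to a ubiquitin-like protein, respectively. Rps27a had 3484 and 5450 counts and a log2 ratio of 1.29. Fau, which encodes the small subunit protein S30 and has a symbol outside the rule, had 1880 and 3168 counts (2.63-fold, 2.48 to 2.79). Both were called higher. Diamond-Blackfan anaemia is an inherited failure of red cell production. Of 10 members listed for human counterparts mutated in it, 10 were called higher with Rpl26 summed. With loci summed 79.5% of the family were, beside 12.8% of all genes. The median log2 ratio of the 10 was 1.31, near the family's 1.27. The list is not complete, and Rpl15 and Rpl27, which it leaves out, lay between the limits at 0.67 and 0.84.

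Ordered by TPM, the order of the genes was largely kept between the libraries, with a Spearman rho of 0.87 over the 77 genes with loci summed. The median level was 697 TPM in the homogenate against 1238 TPM in the synaptosome fraction. The lowest level in each was that of Rps15a, 88.9 and 96.2 TPM. The highest was Rpl26 with its paired symbol in the homogenate, 2003 TPM, and Rplp1 in the synaptosome fraction, 3899 TPM. The coefficient of variation across the genes was 48.8% in the homogenate against 58.7% in the synaptosome fraction. Among the 100 most abundant genes by TPM, 15 were ribosomal protein genes in the homogenate against 37 in the synaptosome fraction.

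By symbol, the most abundant large subunit mRNAs in the homogenate were Rpl41, Rpl38, Rplp1, Rpl23a and Rpl9. Rpl41, whose product is the smallest ribosomal protein, had 1853 and 3728 TPM. Rpl38, whose loss in mice disturbs the patterning of the axial skeleton, had 1555 and 2251 TPM. Rplp1 had 1466 and 3899 TPM, Rpl23a, an exit tunnel protein, 1215 and 2084, and Rpl9 1207 and 2905. Rplp1 and Rpl9 passed Rpl38 in the synaptosome library. In the small subunit, also by symbol, Rps29 had 1548 and 3017 TPM, Rps15 1205 and 2933, Rps3a 1114 and 1549, and Rps24 1066 and 1856. Summed with Gm9846, Rps27 had 1851 and 3629 TPM, above Rps29 in both libraries. Rps3a was above Rps24 in the homogenate and below it in the synaptosome library.

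Several ribosomal proteins have a second gene for a similar protein, here called a paralog. Chosen by symbol, 8 were in the files, among them Rps4y2, which is listed as noncoding. Their ratios were lower than those of their parent genes in each pair that could be measured. Of the 5 kept paralogs 0 were called higher, beside 12.8% of all genes, and 5 genes are too few to tell these shares apart. Rpl22l1 had 840 counts in the homogenate against 493 in the synaptosome fraction, a ratio of 0.916 (0.818 to 1.03). Its parent Rpl22 had 1417 and 2098 counts, a ratio of 2.31 (2.16 to 2.47). The balance of Rpl22 to Rpl22l1 was therefore 2.52 times higher in the synaptosome fraction (2.22 to 2.87), a measure that no library scaling changes. Of the TPM of the pair, Rpl22l1 held 75.2% in the homogenate against 54.5% in the synaptosome fraction. These shares rest on listed lengths of 477 bases for Rpl22l1 and 2040 for Rpl22. By counts Rpl22l1 was below Rpl22 in both libraries.

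Rpl36al, an autosomal copy of the X-linked Rpl36a, had 1070 and 848 counts, against 1320 and 2041 for Rpl36a, and the balance was 1.95 times higher (1.74 to 2.19). Its part of the pair's TPM was 43.1% and 27.9%. Rpl7l1, which resembles Rpl7, had 706 and 531 counts, and the balance of Rpl7 to it was 1.59 times higher (1.41 to 1.79). Rps27l had 148 counts in each library, and the balance of Rps27, summed with Gm9846, to it was 1.82 times higher (1.44 to 2.30). In all of these pairs the parent gained on its paralog in the synaptosome library.

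Rps4y2 had 260 and 89 counts, a ratio of 0.534 (0.415 to 0.683), and the balance of the X-linked Rps4x, with 5016 and 6585 counts, to it was 3.84 times higher (3.01 to 4.89). Rpl3l, a form of Rpl3 known from skeletal muscle and heart, had 9 counts and 1 count. Its ratio was 0.174 (0.004 to 1.25), an interval that included 1, so no difference between the libraries could be shown at this depth. The balance of Rpl3 to Rpl3l was 10.4 times higher (1.31 to 81.9), a value that rests on these few counts. The level of Rpl3l was 1.16 and 0.18 TPM, against 957 and 1185 TPM for Rpl3, a protein near the peptidyl transferase centre. Rpl39l had 1 count in the homogenate against 0 in the synaptosome library, and Rpl10l had 0 in both, each 0 allowing up to 3 counts. Both are known from testis, and no ratio is given for them.

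**Figure D3:**
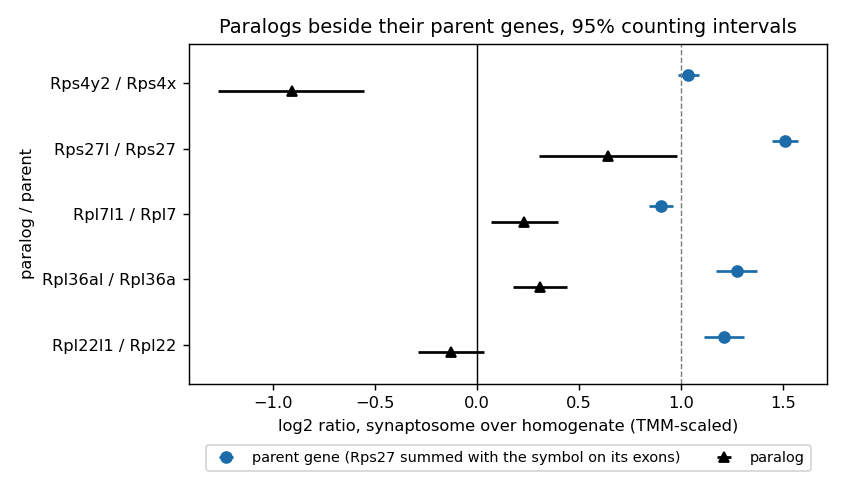
Log2 ratio of 5 paralogs (triangles) and their parent genes (circles), synaptosome over homogenate, TMM-scaled, with bars for the 95% counting interval. Each paralog lies to the left of its parent, with no overlap of the bars within a pair.

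Of the 78 members, 69 have a single listed transcript and 9 have more. In 7 of these 9, at least 2 transcripts each held 5% or more of the gene's counts in a library, and for Rpl30, Rpl34 and Rps27 this concerns the records with paired symbols described above. Transcript counts are estimates from reads that the forms largely share, so their intervals, which cover counting only, are too narrow.

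Rps24 (chromosome 14, 24490681 to 24496146) encodes a small subunit protein. Its transcripts differ near the end of the coding sequence by 2 very short exons, shown here because the stop codon (capitals) depends on which are included. Both are on the + strand of GRCm38.
Rps24 18-base exon: aaaTGAaatacctagcag
Rps24 20-base exon: TGAgtggagattggatacag
They lie at chr14:24494052-24494069 and chr14:24495430-24495449. The form with both exons stops in the 18-base exon, the form with the 20-base exon alone stops in that exon, and the form with neither stops in the last exon.

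The Rps24 form with both exons had 726 counts in the homogenate against 639 in the synaptosome fraction, 13.96% (13.0 to 14.9) and 7.59% (7.04 to 8.18) of the gene. The form with the 20-base exon alone had 4279 and 7298 counts, 82.2% (81.2 to 83.3) and 86.7% (86.0 to 87.4). The form with neither had 198 and 479 counts, 3.8% (3.3 to 4.36) and 5.70% (5.21 to 6.21). Relative to the middle form, the form with both exons was 1.94 times lower in the synaptosome fraction (1.73 to 2.17) and the form with neither 1.42 times higher (1.197 to 1.68). The 3 forms thus ran in order of the exons they hold, with the fewest short exons furthest up.

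Rpl38 and Rps27a each had a longer, less used form that was lower relative to the main one. The 352-base form of Rpl38 had 185 and 133 counts, 9.53% and 5.16% of the gene, and was 1.95 times lower relative to the 285-base form (1.55 to 2.45). The 821-base form of Rps27a had 86 and 46 counts, 2.46% and 0.837% of the gene, and was 2.97 times lower relative to the 726-base form (2.07 to 4.26). Other lesser forms went the other way or did not differ beyond counting error. The 506-base form of Rpl35a held 6.97% and 9.08% of its gene and was 1.33 times higher relative to the 490-base form (1.08 to 1.63). The 1111-base form of Rpl31 had 58 and 168 counts and was 1.77 times higher relative to the main form (1.31 to 2.39). Its 1253-base form had 121 and 184 counts and a relative ratio of 0.928 (0.736 to 1.17), an interval that included 1. For Rpl19 the interval of the relative ratio of its 2 forms included 1 (0.951, 0.881 to 1.03).

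**Figure D4:**
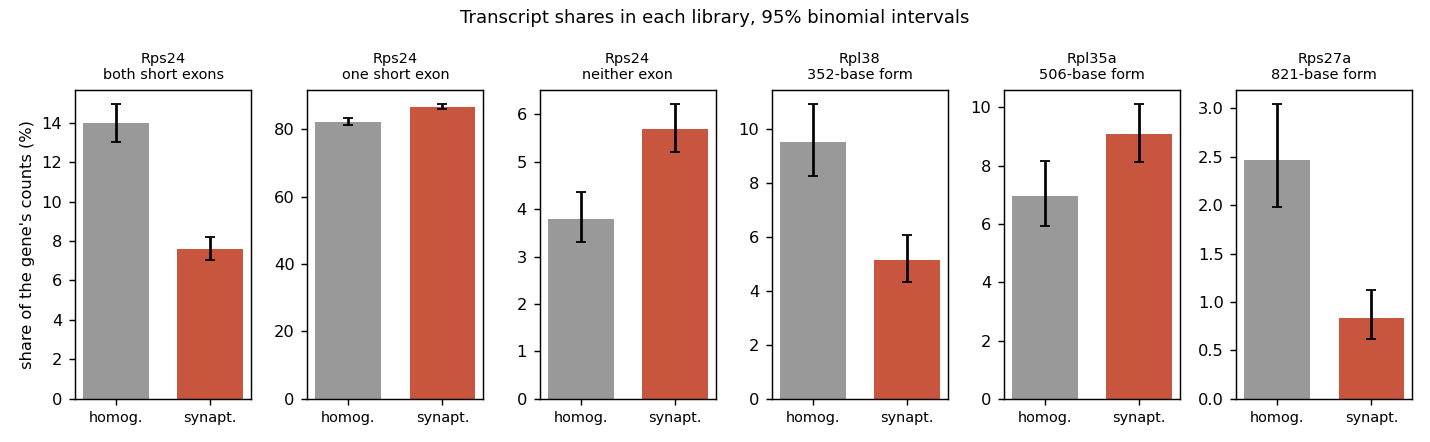
Share of the gene's counts held by each named transcript in the homogenate (grey) and the synaptosome fraction (red), in percent, with bars for the 95% exact binomial interval and a separate axis from 0 in each panel. The Rps24 form with both short exons is at 13.96% of its gene in the homogenate against 7.59% in the synaptosome fraction, while the bars of the other 2 Rps24 forms are higher in the synaptosome fraction.

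The pyrimidine run at the gene start was counted over the family. RefSeq start regions were matched for 57 members, of which 48 (84.2%) held a run of at least 8 bases of C or T within 50 bases of the start, searched on the transcript strand only. Of all 32851 start regions 35.7% held such a run, as did 37.2% of 11115 other kept genes. The median log2 ratio was 1.298 for the 48 members with a run and 1.04 for the 9 without. Among the other kept genes it was 0.00 with a run and -0.04 without. A match is a description of the letters and does not show a functional TOP tract.

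Other mRNAs known to carry a TOP tract, mostly translation factors, were higher less uniformly. Of 24 kept, 6 were called higher (25% beside 12.8% of all genes) and 0 lower, with a median log2 ratio of 0.68. Besides Fau these included Eef1a1, the elongation factor that brings tRNA to the ribosome, with 34820 and 54036 counts (2.42-fold, 2.39 to 2.46), Eef2, which moves the ribosome along, with 14222 and 20686 (2.27-fold, 2.22 to 2.32), Tpt1, at 2.52-fold (2.45 to 2.59), and Gnb2l1, the ribosome-bound scaffold now called Rack1, at 2.48-fold (2.36 to 2.61). Hnrnpa1, a splicing regulator, and Cct4, a chaperonin subunit, were lowest, at 0.553 (0.510 to 0.599) and 0.687 (0.629 to 0.751). Under library totals the median of all 24 was 0.18, beside 0.75 for the ribosomal protein genes.

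The genes that build ribosomes did not show the ratios of the ribosomal protein genes. Of 78 ribosome assembly factors kept, 0 were called higher, beside 12.8% of all genes, and 9 lower, which is 11.5% beside 9.1% of all genes, with a median log2 ratio of -0.32. The share called lower was thus near that of all genes. The GTPase Gnl2 had 1361 and 310 counts, a 2.81-fold lower level (2.48 to 3.19), and the ATPase Nvl 816 and 201 counts, 2.60-fold lower (2.23 to 3.05). Nsa2 and Rrp8 were highest, at 1.98 (1.81 to 2.17) and 1.63 (1.32 to 2.03). Among the most abundant, nucleolin (Ncl) had a ratio of 1.09 (1.04 to 1.13) and Rrp1 a ratio of 0.637 (0.605 to 0.670). All of these lay below the median of the ribosomal protein genes.

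Of 76 genes for proteins of the mitochondrial ribosome, 1 was called higher, Mrpl52 with 250 and 329 counts (2.06-fold, 1.74 to 2.43), and 0 lower, and the median log2 ratio was -0.12. Mrpl23 followed at 0.62 on that scale, Mrps33 and Mrpl48 had 0.35 and 0.39, and Mrps22 and Mrpl53 were lowest at -0.999 and -0.867. Of 24 genes that control translation of ribosomal protein mRNAs, 8.33% were called in each direction, no more than the 12.8% and 9.1% of all genes. The 2 called higher were Eif4ebp2 at 2.78-fold (2.33 to 3.31) and Eif4ebp1 at 2.07-fold (1.26 to 3.41), both brakes on cap-dependent initiation. The RNA-binding proteins Tia1 and Tial1, which bind TOP mRNAs under starvation, were called lower, at 3.75-fold (3.25 to 4.35) and 2.48-fold (2.24 to 2.76). Eif4a1 and Eif4g1, of the initiation complex, had log2 ratios of -0.36 and 0.01, and the list's median was -0.03. The median of the ribosomal protein genes, 1.27 with loci summed, was above each of these lists.

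**Figure D5:**
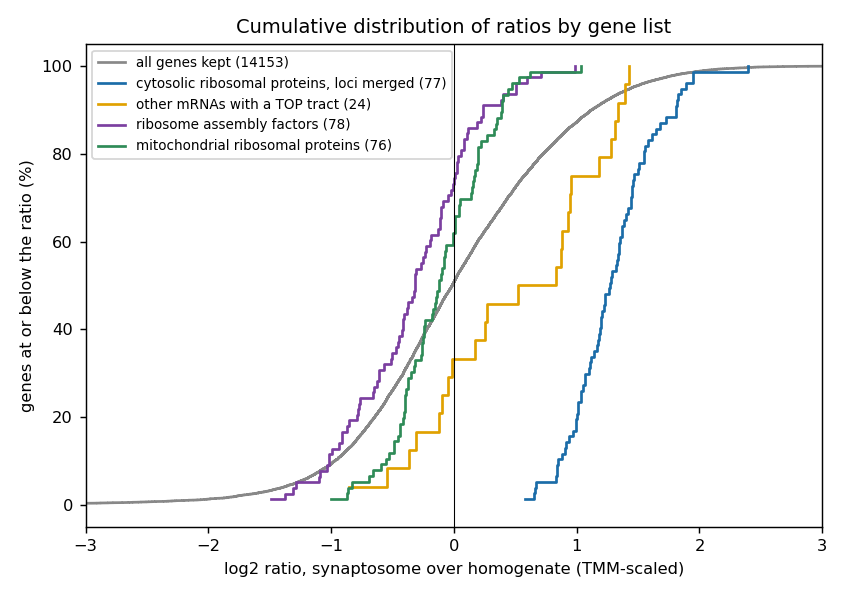
Cumulative share of genes (percent) at or below each log2 ratio, synaptosome over homogenate, TMM-scaled, for all 14153 kept genes and 4 lists, drawn from -3 to 3. The curve of the 77 ribosomal protein genes starts at 0.58, to the right of the medians of all genes (-0.01), assembly factors (-0.32) and mitochondrial ribosomal proteins (-0.12).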

How the data were processed

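The authors deposited, per the file headers, an expected count and a TPM value for each transcript of each library, a posterior estimate of the count, and a table with a signal value per gene. Build mm10, FastQC, edgeR 3.0.6, RSEM 1.2.5 and TopHat 1.3.3 are named per the submitters' processing notes, without their roles. The deposited signal was the gene's count times 0.798 (homogenate) or 1.25 (synaptosome fraction), within 0.5% for most genes, and served as an alternative.

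Here, the expected counts of all transcripts of a gene symbol were added and rounded. TMM factors were 1.19 and 0.843 (edgeR 4.0.16, R 4.3.3). Each log2 ratio has an exact Clopper-Pearson interval at 95%, which covers counting error only, as PCR copies are not independent molecules. Calculations used Python 3.11.15, numpy 2.4.6, scipy 1.17.1 and pandas 2.3.3, and were tested on simulated counts. The members, the gene lists, the roles and the tests were chosen with earlier results of these data known. Named members are the 6 highest and 6 lowest ratios and the 5 most abundant of each subunit, the stalk and ubiquitin fusion genes, the paralogs, the genes with several transcripts, and in each other list the 2 highest, lowest and most abundant. Results of some genes under this rule are not reported here. Any other named gene was picked with its values in view. Alternatives were other scalings, filters, fold limits and units. Protein sequences were not used here.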

Additional observations from a re-analysis of the deposited data

How the results depend on the processing

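The count of 59 members called higher moved by over 1.5 times under library totals (18), TPM (17) and a 3-fold limit (14), and was 59 to 73 under RLE, TMM without these genes, the deposited signal, a 1.5-fold limit, no filter, a mean of at least 10 CPM and sums with pseudogene symbols. Added after seeing the data, it was 62 with paired loci summed, 60 with posterior counts and 59 without Rps4y2. At 1.5-fold 1 paralog was called higher. Under library totals and under TPM the median log2 ratios were 0.75 and 0.71 for the members, 0.70 and 0.65 for the large subunit, 0.82 and 0.78 for the small subunit, 0.18 and 0.14 for other TOP mRNAs, -0.81 and -0.86 for assembly factors, -0.62 and -0.66 for mitochondrial ribosomal proteins and -0.52 and -0.51 for translation control genes. These shifts follow from the scalings, which put the median of all genes at -0.51 and -0.55. The members' share was 5.41% and 9.48% of TPM in place of 1.48% and 2.60% of counts. Rps27 turned to 1.16 with the signal, 1.15 with posterior counts and 1.51 when summed with its paired symbol, and Rpl26 to 1.23 when summed. No paired analysis was possible because the 2 groups share only 1 replicate number.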

Other observations

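Transcripts that host small nucleolar RNAs, of which several also begin with a pyrimidine tract, were looked at after the values of the ribosomal protein genes were seen. Of 10 kept, 0 were called higher, beside 12.8% of all genes, and 1 lower (10.0% beside 9.1% of all genes). This was Snhg7, with 75 and 14 counts (3.43-fold lower, 1.92 to 6.58), and the median log2 ratio of the 10 was -0.22. Snhg11 was not in this list but among the nuclear RNAs above. It had 46506 and 5104 counts and was called lower, at 5.84-fold (5.67 to 6.01). Gas5 had 881 counts in the homogenate against 495 in the synaptosome fraction, a ratio of 0.877 (0.784 to 0.981). Snhg8, Snhg6 and Snhg12 had log2 ratios of 0.85, 0.69 and 0.65.

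Among the 70 short and abundant genes outside the family, the 23 called higher included S100a1, a calcium-binding protein, with 640 and 3016 counts (7.36-fold, 6.75 to 8.03). The metallothioneins Mt1, Mt2 and Mt3 had log2 ratios of 2.05, 1.97 and 1.92. The ferritin chains Fth1 and Ftl1 had 1.5 and 1.64, and the 9 cytochrome oxidase subunits among the 70 ranged from -0.51 for Cox5a to 1.33 for Cox4i1. The 5 called lower were Hba-a1, Pcp4, Myl12b, Fkbp3 and Bex2, at -3.08, -1.23, -1.14, -1.12 and -1.12. These genes were chosen after their values were seen.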
